A study of Mus musculus with 9 samples.

Results

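Of the 18032 genes with a probe set of their own on the arrays, 30 met a rule of 3 stages. Their signal was under 200 on each of the 3 MOSE-E and 3 MOSE-I arrays and over 500 on each of the 3 MOSE-L arrays, so the genes were chosen by the signals of all 9 arrays, and each gene was counted by its brightest probe set that passed. They are called late-only genes here, a name for what the rule asked for on that probe set. In order of the MOSE-L signal, which is not a common scale across probe sets, they were Igdcc4, Cadm1, Mal2, Amhr2, Kctd14, Sorbs2, Ldhb, Fetub, Rtp4, Cadm4, Lmcd1, Tcn2, Inhbb, Scara5, Tspan32, Kcnu1, Akr1c13, Il16, Akr1cl, Adcy7, AI467606, Cp, Masp1, Thsd4, Pax3, P3h2, Car12, Pir, Pyroxd2 and Slc46a1. The mirrored rule, over 500 on the 6 earlier arrays and under 200 on the 3 late arrays, was met by 11 genes. A pattern on from MOSE-I was met by 1 gene, and a pattern on only in MOSE-I by 1 gene.

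Mouse ovarian surface epithelial (MOSE) cells of C57BL6 origin transform spontaneously when kept in culture. MOSE-E cells of passages 13, 14 and 15 are labelled non-malignant, MOSE-I cells of passages 63, 71 and 73 intermediate, and MOSE-L cells of passages 136, 142 and 143 malignant. All 3 stages were untreated cultures of 1 cell series in the same serum medium with insulin, transferrin and selenite, so stage and time in culture cannot be told apart. RNA of each culture was hybridized to 1 whole-genome Affymetrix array, and the deposited signal is a linear MAS 5.0 intensity without a unit, scaled by the authors to a trimmed mean of 500 on every array. The number of arrays limits the precision of every value, and p-values measure the spread between cultures of this series.

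The epithelial and mesothelial markers Krt8, Krt18, Krt19, Wt1 and Upk3b were over 1000 on all 9 arrays, and Msln and Cdh2 were over 700. Other markers were not, as Krt7 was at 2793 to 3703 in MOSE-E and at most 545 in the later stages, and the epithelial cadherin gene Cdh1 at 486 to 949 and then at most 93.3. Of the 16 tested markers of mesothelium and ovarian surface epithelium, 0 were called higher and 6 lower in MOSE-L than in MOSE-E (median log2 change -0.81), Krt7 (-4.28, adjusted p = 1.82e-04 in limma), Krt8 (-1.47, 0.00538) and Krt19 (-1.11, 0.0142, lost without MOSE-E replicate 1 or 2 or MOSE-L replicate 2) among them. A call here is an adjusted p of at most 0.05 in limma with a log2 change of at least 1, and 8.12% of the 7942 tested genes were called higher and 7.50% lower. Ptprc and Pecam1, which define leukocytes and endothelium, were at most 51.9 and 88.4. The macrophage markers Cd68 and Csf1r were brighter, at 122 to 362 and 151 to 595. Of the markers measured, 14 of 19 for macrophages, 11 of 12 for lymphocytes and 8 of 12 for endothelium stayed under 200 on every array. Of 14 fibroblast and smooth muscle markers only 2 did. Of the 9 of these tested, 1 was called higher and 4 lower in MOSE-L than in MOSE-E (median log2 change -2.54). Pairs of arrays of the same stage correlated at 0.889 to 0.986 over the tested probe sets, the lowest of these 9 pairs being MOSE-L replicates 1 and 3.

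The surface epithelium of the ovary descends from the coelomic epithelium, which also gives rise to the lining of the Müllerian duct. Anti-Müllerian hormone acts on derivatives of that tissue through a type 2 receptor encoded by Amhr2, and activins and inhibins are dimers built from beta subunits such as the one encoded by Inhbb. Nectin-like proteins are immunoglobulin-type adhesion molecules of cell contacts. Genes active in few tissues often have promoters poor in CpG dinucleotides, while genes active in most cells tend to start in CpG islands.

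RefSeq promoters of the build GRCm38.p6, 250 bases before to 50 bases after the start of the gene farthest upstream, were given for 20 of the 30 genes. The 250 bases before the start are shown for 3 CpG-poor and 2 CpG-rich genes because the late-only genes differed from most measured genes in this feature. CpG dinucleotides are in capitals, and each sequence runs 5′ to 3′ on the strand of the gene.
Amhr2 (chr15:102445117-102445366, plus strand): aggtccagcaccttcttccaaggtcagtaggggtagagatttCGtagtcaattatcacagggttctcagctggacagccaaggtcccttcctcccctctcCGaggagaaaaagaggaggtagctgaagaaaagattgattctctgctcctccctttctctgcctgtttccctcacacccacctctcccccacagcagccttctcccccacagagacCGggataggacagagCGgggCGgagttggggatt
Cp (chr3:19956804-19957053, plus strand): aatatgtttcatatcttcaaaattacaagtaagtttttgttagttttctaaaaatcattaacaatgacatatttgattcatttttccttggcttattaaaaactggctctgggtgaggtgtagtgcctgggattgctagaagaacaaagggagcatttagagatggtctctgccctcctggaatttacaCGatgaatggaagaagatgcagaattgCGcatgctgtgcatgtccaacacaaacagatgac
Tspan32 (chr7:143004796-143005045, plus strand): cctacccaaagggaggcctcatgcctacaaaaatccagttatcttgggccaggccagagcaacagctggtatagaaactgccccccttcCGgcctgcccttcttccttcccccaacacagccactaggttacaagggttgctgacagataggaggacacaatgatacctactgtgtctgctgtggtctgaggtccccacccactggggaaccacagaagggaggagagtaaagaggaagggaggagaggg
Igdcc4 (chr9:65101236-65101485, plus strand): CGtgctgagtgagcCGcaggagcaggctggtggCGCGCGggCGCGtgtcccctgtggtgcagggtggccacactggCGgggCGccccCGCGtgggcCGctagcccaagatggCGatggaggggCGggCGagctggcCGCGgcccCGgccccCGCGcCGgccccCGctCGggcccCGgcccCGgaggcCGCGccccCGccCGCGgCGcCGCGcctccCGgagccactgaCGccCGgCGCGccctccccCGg
Inhbb (chr1:119422249-119422498, minus strand): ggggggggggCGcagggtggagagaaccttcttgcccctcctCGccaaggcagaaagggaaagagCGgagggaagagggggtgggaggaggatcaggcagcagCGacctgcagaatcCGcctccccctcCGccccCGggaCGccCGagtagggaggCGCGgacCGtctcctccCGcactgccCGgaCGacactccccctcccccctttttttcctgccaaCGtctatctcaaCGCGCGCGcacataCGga
Amhr2, Cp and Tspan32 have 5, 2 and 1 CpG in these 250 bases, where Igdcc4 has 39 and Inhbb 21. Over the 300 bases the ratio of observed to expected CpG was 0.22 for Amhr2, 0.19 for Cp and 0.09 for Tspan32, against 0.91 for Igdcc4 and 0.74 for Inhbb. The median ratio of the 20 promoters was 0.33. It was 0.80 over the 6513 tested genes with a promoter and 0.72 over the 492 other genes called higher in MOSE-L than in MOSE-E. It was 0.37 over the 5961 other genes that lay under 200 on all MOSE-E and MOSE-I arrays by every probe set. A ratio under 0.3 was found in 9 of the 20 promoters (45%), in 41.9% of those 5961 dim genes, in 13.8% of the 492 genes called higher and in 5.87% of tested genes. A ratio over 0.6 was found in 5 of the 20, namely Cadm4, Igdcc4, Inhbb, Ldhb and Slc46a1 (25%), against 30.5% of the dim genes and 79.9% of tested genes. The CpG content of the late-only promoters lay near that of the other genes dim in the earlier stages, from which the rule drew them, and below that of other genes that rose. It is a description of letters, and methylation was not measured.

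**Figure D1:**
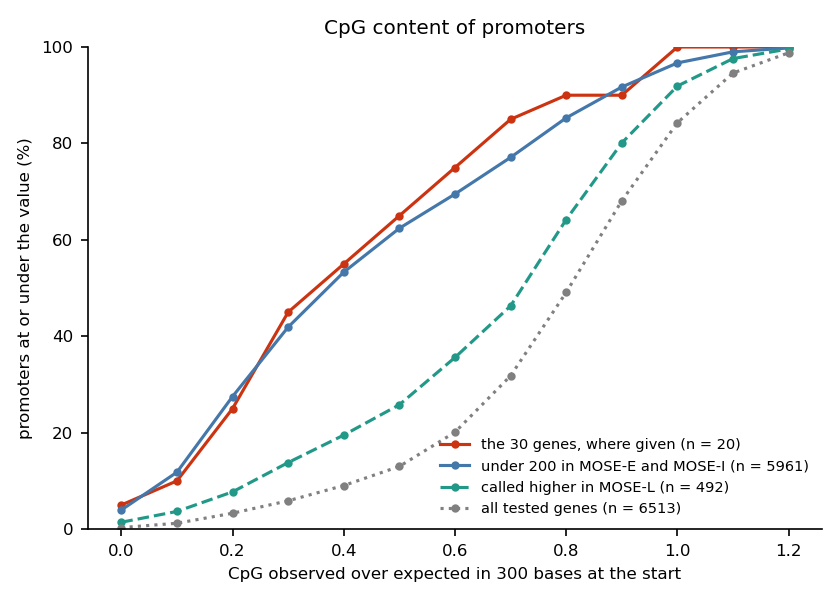
Cumulative share of promoters (y axis, percent) at or under each ratio of observed to expected CpG in 300 bases at the start of the gene (x axis), for the 20 late-only genes with a given promoter, other genes under 200 on all MOSE-E and MOSE-I arrays (n = 5961), other genes called higher in MOSE-L (n = 492) and tested genes (n = 6513). The lines of the late-only and the dim genes lie close together and above the other groups, with 45% and 41.9% of promoters under a ratio of 0.3.

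In the same windows, on both strands, 7 short motifs were searched. TATAAA was found in 1 of 20 promoters, that of Fetub, against 9.86% of the 14368 promoters of genes on the arrays. GGGCGG was found in 10 (50%) against 54.1%, TGACGTCA in 1, that of Lmcd1, against 2.69%, and TGANTCA in 3 (15.0%), those of Cp, Il16 and Pir, against 6.29%. AGATAA was found in 2, those of Akr1cl and Tspan32, against 8.12%, and a pair of GAAA spaced by 2 bases, as in interferon response elements, in 1, that of Inhbb, against 3.03%. CAAGGTCA, the letters bound by the gonadal factor SF-1, was found in 1 promoter, that of Amhr2, against 1.33%. A match of letters is not a site of binding.

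The rule fixed the direction and a minimum gap for all 30 genes, so their levels are described without a test. The mean MOSE-L signal ran from 651 for Slc46a1 to 3161 for Igdcc4, with a median of 1053.8. It was over 2000 in 6 genes, 1000 to 2000 in 13 and under 1000 in 11. Changes on the scale of log2 of the signal plus 50, which understates the change of dim genes, ran from 1.85 to 5.25 for MOSE-L against MOSE-E (median 3.26, against 0.03 over all tested genes) and from 1.78 to 5.33 for MOSE-L against MOSE-I (median 3.34, against -0.02). The lowest MOSE-L array lay a median of 5.39 times above the highest earlier array. This ratio was over 10 in 8 genes, and the widest gaps were those of Amhr2, at 107, and AI467606, at 99.7. Both were taken over earlier signals of at most 14.3 and 7.29, and other probe sets of both genes showed smaller gaps. In a culture, a larger share of cells with the RNA and more RNA per cell cannot be told apart. The plot of the signals of the 30 genes by array shows the gap and the scatter of the earlier signals, which spanned more than a factor of 10 in genes such as Cadm1, Mal2 and Ldhb.

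**Figure D2:**
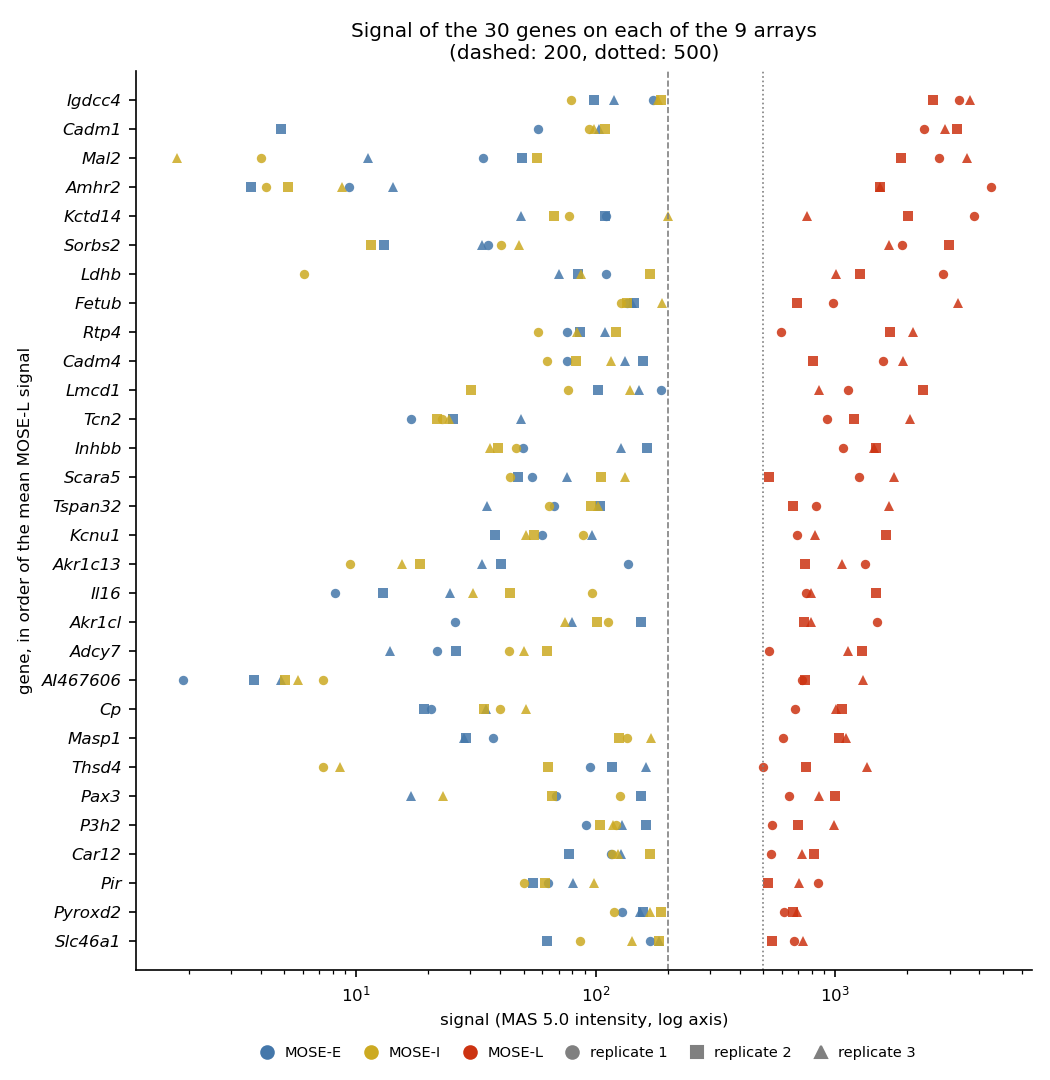
Signal of each late-only gene (rows, in order of the mean MOSE-L signal) on each of the 9 arrays (log axis); colours give the stage, shapes the replicate, and the lines mark 200 and 500. By the rule no point lies between the lines. On these probe sets Amhr2 and AI467606 show the widest gaps, 107 and 99.7 times, and other probe sets of both genes showed smaller ones.

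Close to the thresholds, the highest earlier signals inside the rule were 199.8 for Kctd14, 189.4 for Fetub and 187.7 for Lmcd1. The lowest MOSE-L signals inside it were 501.2 for Thsd4, 521.6 for Pir and 528.2 for Scara5. Just outside lay St3gal6, Oplah and Tgfa, with earlier signals of up to 201.8, 207.2 and 208.8, and Ptprv, Deptor and Alcam, with MOSE-L signals down to 478.6, 470.8 and 467.5.

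Hormone genes of the gonad were in the set. Amhr2, the receptor for anti-Müllerian hormone, had signals of 9.38, 3.63 and 14.3 in MOSE-E, 4.21, 5.19 and 8.70 in MOSE-I and 4482, 1538 and 1534 in MOSE-L. Its earlier signals were at most 14.3, and replicate 1 of MOSE-L was 2.92 times the lowest late array. Another Amhr2 probe set that passed read 9.05 to 45.2 on the earlier arrays and 2868, 967 and 1335 on the late ones, with replicate 1 again highest. Both of these carry the suffix of probes that can match other transcripts. The third Amhr2 probe set, without that suffix, read 6.08 to 24.6 on the earlier arrays and 621, 210 and 286 on the late ones, again highest on replicate 1. Inhbb, the beta B subunit of activin and inhibin, read 49.9, 164 and 127 in MOSE-E, 46.3, 39.0 and 36.1 in MOSE-I and 1074, 1481 and 1458 in MOSE-L. It was lower in MOSE-I than in MOSE-E on every array, and its MOSE-L arrays lay within a factor of 1.38 of each other. A second Inhbb probe set was dim, with 56.5 to 213 on the earlier arrays and 206 to 390 in MOSE-L. Of the 13 other tested genes of a list for anti-Müllerian hormone and gonadal receptor signalling, 2 were called higher and 3 lower in MOSE-L than in MOSE-E, against 8.12% and 7.50% of all tested genes. Esr1, the estrogen receptor alpha, rose by 2.69 (adjusted p = 0.0224), a call lost without MOSE-E replicate 1 or 2 or MOSE-L replicate 2. Inhba, which encodes the beta A subunit, fell from 3544 ± 2149 to 507 ± 224 (SD, n = 3; log2 change -2.51, adjusted p = 0.00733 in limma). Its MOSE-I signal was already 565 ± 191 (SD, n = 3). Id3, a target of bone morphogenetic proteins, fell by 1.74 on the log2 scale (adjusted p = 0.0491), and lost the call in 13 of 18 alternative limma fits, leaving out each array except MOSE-L replicate 1 among them.

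A second group encodes adhesion and membrane proteins. Igdcc4, an immunoglobulin-type receptor of the DCC family, read 173, 98.2 and 119 in MOSE-E, 78.9, 187 and 182 in MOSE-I and 3298, 2549.7 and 3636 in MOSE-L. Cadm1, a nectin-like adhesion molecule known as a tumour suppressor in lung, read 57.4, 4.86 and 103, then 93.5, 109 and 98.7, and 2356, 3211 and 2860.3 in MOSE-L. Both were tight in MOSE-L, with a highest over lowest array of 1.43 and 1.36, and 3 further Cadm1 probe sets and 1 further Igdcc4 probe set met the same thresholds. Cadm4, its relative, read 76.1, 158 and 132 in MOSE-E, 62.7, 82.5 and 116 in MOSE-I and 1580.4, 809 and 1927 in MOSE-L. Mal2, a raft proteolipid needed for transcytosis in polarized epithelium, read 33.9, 49.2 and 11.2 in MOSE-E, 4.01, 57.0 and 1.79 in MOSE-I and 2704, 1888 and 3548 in MOSE-L. Tspan32, a tetraspanin known from blood cells, read 67.0, 104 and 35.2, 64.0, 95.3 and 102 and 830, 665 and 1677. Another of its probe sets, at 316 to 598 in MOSE-E and 330 to 422 in MOSE-L, did not show the rise. In a list of nectins and nectin-like genes written after the values were seen, 4 other genes were tested. Nectin3 fell from 1539 ± 314 in MOSE-E and 703 ± 229 in MOSE-I to 20.4 ± 16.7 in MOSE-L (SD, n = 3; log2 change -4.51, adjusted p = 5.45e-06 in limma). Nectin2 rose by 1.25 (adjusted p = 0.0317), a call lost without any of the 3 MOSE-E arrays or without MOSE-L replicate 3. Contact molecules of this family included late-only genes as well as a gene that was dim only in MOSE-L. Of 13 other tested tetraspanin and Tm4sf genes 3 were called higher and 1 lower, against 8.12% and 7.50% of all tested genes. The largest changes were a rise of 1.45 for Tspan9 (adjusted p = 0.00218), of 1.36 for Tspan17 (adjusted p = 0.0128) and of 1.23 for Tspan31 (adjusted p = 0.00686). The Tspan17 call was lost without MOSE-E replicate 2 or 3 and not tested without MOSE-L replicate 3, and the Tspan31 change fell under 1 without MOSE-L replicate 3.

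Genes of metal and vitamin handling formed the third group. Cp, the copper-bearing ferroxidase ceruloplasmin, read 20.5, 19.2 and 34.7 in MOSE-E, 39.9, 34.1 and 51.2 in MOSE-I and 679, 1069 and 1005 in MOSE-L on the probe set of the rule. Of its 7 other probe sets 5 were brighter, and the brightest read 309, 445 and 693 in MOSE-E, 1292, 1206 and 1311 in MOSE-I and 3743, 14936 and 9896 in MOSE-L. On these 5 probe sets Cp was already over 200 in MOSE-I and each stage lay above the one before without overlap. Cp was thus late-only on the probe set of the rule and not on these 5. A dimmer probe set read at most 36.7 on the earlier arrays and 302, 458 and 490 in MOSE-L. Another read at most 20.3 and then 44.9, 726 and 325. Scara5, a scavenger receptor that takes up ferritin, read 54.3, 47.6 and 75.9, 44.0, 105 and 133 and 1259.7, 528 and 1765. Replicate 3 was 3.34 times replicate 2, the lowest of its MOSE-L arrays. Tcn2, the transcobalamin that carries vitamin B12, read 16.9, 25.3 and 49.0 in MOSE-E, 22.9, 21.8 and 24.4 in MOSE-I and 926, 1199.5 and 2052 in MOSE-L. A brighter Tcn2 probe set read 898, 870 and 1024 in MOSE-E, 756, 967 and 953 in MOSE-I and 2719, 3042 and 5641 in MOSE-L, a rise from a level well over the threshold. It carries the suffix of probes that can match other transcripts, so its earlier signal may not be that of Tcn2 alone. Slc46a1, the proton-coupled folate transporter, read 169, 62.5 and 184, 86.1, 183 and 142 and 672, 547 and 735, with a highest over lowest late array of 1.34. A list of iron and copper handling, written after the values were seen, held 13 other tested genes. Against 8.12% and 7.50% of all tested genes, 6 of them were called higher and 0 lower. They were the ferroxidase-like Hephl1 (1.91, adjusted p = 0.0220), the iron exporter gene Slc40a1 (1.31, 0.0315), the metalloreductase Steap2 (1.11, 0.00297), Hfe (1.3, 0.0320), the copper pump Atp7a (1.25, 0.0167) and the copper importer Slc31a1 (1.03, 0.00520). All 6 were highest on MOSE-L replicate 3, as were 52.8% of the 615 other genes called higher. Without that array 5 of the 6 lost the call and Hfe was not tested. Calls were also lost without MOSE-E replicate 1 for Hfe and Atp7a, without MOSE-E replicate 2 or 3 for Hephl1, Slc40a1, Slc31a1 and Hfe, and without MOSE-L replicate 2 for Hephl1. A list of cobalamin and folate handling, also written after the values were seen, held 15 other tested genes, of which 2 were called higher and 1 lower. Those called higher were the transcobalamin receptor Cd320 (1.12, adjusted p = 0.00309) and the lysosomal cobalamin exporter gene Lmbrd1 (1.52, 0.00317). The folate enzyme Mthfd1 was called lower (-1.29, 0.00814). With 200 added to the signals the Cd320 change was 0.98 and its call was lost. Of 130 other tested solute carriers 24 were called higher and 4 lower, beside the same shares of all tested genes. The 3 largest changes were those of the glutamate transporter Slc1a6 (-3.42, adjusted p = 0.00248), the proton exchanger Slc9a7 (2.66, 0.00490) and the bicarbonate transporter Slc4a4 (-2.65, 0.00133).

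Several late-only genes encode enzymes. Ldhb, the heart-type subunit of lactate dehydrogenase, read 110, 84.5 and 70.3 in MOSE-E, 6.08, 168 and 86.9 in MOSE-I and 2820.1, 1269 and 1012 in MOSE-L. Its brightest other probe set read 371, 402 and 422, 404, 458 and 465 and 3577, 2118 and 1442, a rise from levels over 200 on all earlier arrays. On a list of monocarboxylate transport genes, 2 of 5 other tested genes were called higher. Over all tested genes 8.12% were called higher and 7.50% lower. Emb, the embigin chaperone of monocarboxylate transporters, rose from 36.1 ± 27.5 in MOSE-E and 671 ± 281 in MOSE-I to 12018 ± 5232 in MOSE-L (SD, n = 3; log2 change 7.10, adjusted p = 1.23e-06 in limma). Slc16a1, the transporter MCT1, rose by 1.09 (adjusted p = 0.00754), a change that fell under 1 without MOSE-E replicate 3 or MOSE-L replicate 3. Akr1c13, an aldo-keto reductase, read 136, 40.3 and 33.7 in MOSE-E, 9.45, 18.5 and 15.6 in MOSE-I and 1334, 747 and 1065 in MOSE-L, lower on all MOSE-I than on all MOSE-E arrays. Akr1cl, a relative, read 25.9, 154 and 79.7, 113, 101 and 74.5 and 1495, 739 and 794. Genes of this family are near copies of each other, so probes may be shared and the assignment of signal is uncertain. Of 6 other tested aldo-keto reductases 1 was called higher, Akr1c14 (1.75, adjusted p = 0.0340), a call lost without MOSE-E replicate 2 or 3 or MOSE-L replicate 1 or 2. On a list of retinoid and xenobiotic metabolism 5 of 18 other tested genes were called higher and 1 lower. The glutathione transferase Gsta4 rose by 3.26 (adjusted p = 2.23e-04), and Aldh1a1, which makes retinoic acid, fell by 1.99 (adjusted p = 0.00473). The rise of 2.75 of Gsta3 (adjusted p = 0.0474) lost its call in 13 of 18 alternative limma fits, 7 of them leaving out 1 array, all but MOSE-I replicate 1 and MOSE-L replicate 2.

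Adcy7, an adenylyl cyclase that makes cAMP, read 21.8, 26.2 and 13.9 in MOSE-E, 43.6, 62.5 and 50.2 in MOSE-I and 531, 1294 and 1130.0 in MOSE-L. Its MOSE-I arrays all lay above its MOSE-E arrays, and on a brighter probe set the course was 60.2, 48.7 and 93.5, 317, 164 and 121 and 1697, 4276 and 3794. P3h2, a prolyl 3-hydroxylase of collagen, read 91.3, 162 and 129, 122, 104 and 118 and 544, 699 and 992. Car12, a carbonic anhydrase of the cell surface, read 116, 77.1 and 128, 117, 168 and 124 and 538, 816 and 724. Pir, the nuclear iron protein pirin, was at 50.4 to 98.8 on the earlier arrays and 844, 522 and 708 in MOSE-L. Pyroxd2, a protein with an oxidoreductase domain, was at 119 to 187 earlier and 609, 667 and 693 late, with the smallest spread and the smallest log2 change of the set, 1.85.

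Secreted and immune genes were led by Fetub, the plasma protein fetuin-B, which inhibits the protease ovastacin. Fetub read 135, 145 and 142 in MOSE-E, 128, 135 and 189 in MOSE-I and 976, 693 and 3246 in MOSE-L, where replicate 3 was 4.68 times replicate 2. Masp1, a serine protease of the lectin pathway of complement, read 37.3, 28.9 and 28.2 in MOSE-E, 135, 125 and 171 in MOSE-I and 603, 1036 and 1106 in MOSE-L. By the probe sets of the rule, Masp1 had the largest rise before MOSE-L of the late-only genes. It rose 4.56 times from the MOSE-E to the MOSE-I mean and 6.38 times from there to MOSE-L. The call of MOSE-I over MOSE-E (adjusted p = 0.0392 in limma) was lost in 8 of 18 alternative limma fits. Of these, 6 left out 1 array. MOSE-E and MOSE-I overlapped on every other Masp1 probe set, at 21.2 to 175 against 155 to 193 on the brightest. Another, at 96.9 to 176 on the earlier arrays, read 102 to 165 in MOSE-L. Of 10 other tested complement and coagulation genes, 2 were called higher and 1 lower, against 8.12% and 7.50% of all tested genes. Cd55, an inhibitor of complement on the cell surface, rose by 3.58 (adjusted p = 0.00378) and the plasminogen activator gene Plat by 1.74 (0.00758), while thrombomodulin, Thbd, fell by 1.32 (0.00788). Il16, a cytokine that binds CD4, read 8.14, 12.9 and 24.7, 96.3, 43.8 and 30.9 and 754, 1486 and 790. Of 14 other tested interleukin genes and receptors 4 were called higher and 0 lower, beside the same shares of all tested genes. The largest rises were those of the interleukin 1 antagonist Il1rn (3.16, adjusted p = 0.00138), Il4ra (3.06, 0.00185) and Il13ra1 (1.71, 0.00468).

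Rtp4, an interferon-induced chaperone of membrane receptors, read 75.8, 85.9 and 109 in MOSE-E, 57.2, 122 and 83.8 in MOSE-I and 592, 1687 and 2111 in MOSE-L, with replicate 1 at the lowest late level. On the interferon list 11 of 21 other tested genes were called higher and 0 lower, with a median log2 change of 1.37. The largest were the oligoadenylate synthetase genes Oasl2 (3.07, adjusted p = 0.00540) and Oas1a (3.03, 0.00837) and the antiviral gene Rsad2 (2.61, 0.00247). Oas1a read 276, 1231 and 1777 on MOSE-L replicates 1, 2 and 3. All 11 were lowest on MOSE-L replicate 1, as was Rtp4, and 10 of the 11 were highest on replicate 3. Among the 615 other genes called higher, 40.5% were lowest on replicate 1 and 52.8% highest on replicate 3. The summed signal of 19 macrophage and monocyte markers, 14 of them under 200 on every array, ran from 1611 to 1951 over the MOSE-E arrays, from 2019.9 to 3357 over MOSE-I and from 2313 to 2779 over MOSE-L, and their part in the result was not tested.

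The remaining genes act in the nucleus, the cytoskeleton, the matrix and the membrane. Pax3, a transcription factor of neural crest and muscle progenitors, read 68.3, 155 and 17.0 in MOSE-E, 126, 65.9 and 23.0 in MOSE-I and 639, 1001 and 853 in MOSE-L. Another 2 of its probe sets met the thresholds, with MOSE-L signals of 540, 589 and 649 and of 903, 728 and 853. A list of PAX3 partners and neural crest regulators was written after the values were seen. Of 2 other tested genes on it 1 was called higher, the repressor gene Snai2, and 0 lower. Snai2 rose by 2.38 (adjusted p = 7.31e-04 in limma), from 1417 ± 594 in MOSE-E to 5755 ± 410 already in MOSE-I and 7365 ± 2507 in MOSE-L (SD, n = 3). Of the 15 genes of that list on the arrays, 6 were under 200 on every array. Lmcd1, a LIM protein that holds back GATA factors, read 188, 102 and 152, 77.0, 30.1 and 139 and 1131, 2331 and 852. Sorbs2, an adaptor of actin fibres and focal adhesions, read 35.6, 13.1 and 33.5, 40.1, 11.5 and 47.7 and 1898, 2972 and 1676. Thsd4, a matrix protein of fibrillin fibres, read 95.1, 117 and 162, 7.25, 63.5 and 8.61 and 501, 753 and 1362, with the largest fall of the set from MOSE-E to MOSE-I (log2 change -1.25) before the rise. Kcnu1, a potassium channel known from sperm, read 59.6, 38.1 and 96.3, 88.9, 55.3 and 51.2 and 691, 1632 and 827. Of 5 other tested potassium channel genes 2 were called higher and 1 lower, against 8.12% and 7.50% of all tested genes. Those called higher were Kcnn4 (3.38, adjusted p = 0.0115, lost without MOSE-E replicate 3) and Kcnh2 (2.08, 4.41e-04). The gene called lower was Kcnab1 (-1.98, 0.00200). Kctd14, of the family with a potassium channel tetramerization domain, read 111, 109 and 48.9, 77.2, 67.1 and 200 and 3796, 2011 and 762. Its MOSE-L arrays ran over a factor of 4.98, the widest range of the 30 genes. AI467606, a gene known only by its sequence entry, read 1.90, 3.76 and 4.84 in MOSE-E, 7.29, 5.03 and 5.70 in MOSE-I and 727, 749 and 1309.6 in MOSE-L. Its brighter probe set read 33.2, 94.5 and 5.39, then 259, 170 and 147, and 2762, 3513 and 7009 in MOSE-L.

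Other probe sets of the same genes bear on the name late-only. A single probe set measured 8 of the 30 genes and several measured 22, which gave 51 further probe sets. Of these 7 met the thresholds, 34 had all MOSE-L arrays above all earlier ones, and 21 never passed 500 on any array. In 9 genes, Kctd14, Ldhb, Tcn2, Inhbb, Tspan32, Il16, Adcy7, AI467606 and Cp, another probe set reached 200 or more on an earlier array, and in 3 of them, Tcn2, Tspan32 and Cp, 500 or more. In 6 of the 9 that probe set was still higher on every MOSE-L array. For Tcn2 every probe set that reached 200 earlier carries the suffix of probes that can match other transcripts. Among the probe sets of the rule, those of Amhr2, Kctd14, Lmcd1, Masp1 and Slc46a1 carry such a suffix. So do the brightest other probe sets of Adcy7 and Masp1. The other 21 genes stayed under 200 on all earlier arrays by every probe set. A low MAS 5.0 signal does not show that an RNA is absent.

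**Figure D3:**
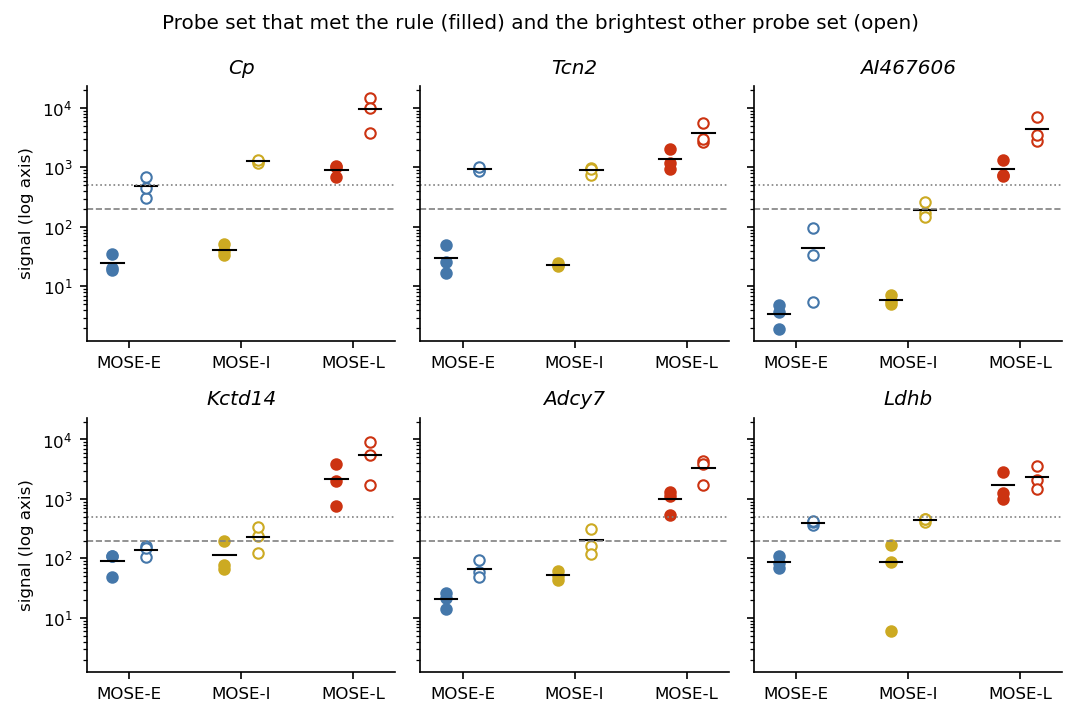
Signal (log axis) of 6 late-only genes in each stage on the probe set that met the rule (filled) and on the brightest other probe set of the gene (open); points are arrays, bars are means of 3, and the lines mark 200 and 500. Cp climbs in both steps on its brighter probe set, and Tcn2 and Ldhb rise from levels over 200 on theirs. The open Tcn2, Kctd14 and Adcy7 probe sets and the filled Kctd14 one carry a suffix of probes that can match other transcripts.

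Between MOSE-E and MOSE-I, both held under 200 by the rule, the 30 genes changed by -1.25 to 1.24 on the log2 scale, with a median of 0.04. On the probe sets of the rule, the groups did not overlap in 7 genes. Il16, Adcy7, AI467606 and Masp1 were higher in MOSE-I, and Inhbb, Akr1c13 and Thsd4 were lower. These 4 and 3 of 30 genes, 13.3% and 10%, stand beside 4.95% higher and 8.72% lower without overlap among the 25151 probe sets under 200 on all 6 arrays. The rule used these arrays, and nothing is read from the shares.

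Within MOSE-L the genes did not share an order of arrays. The highest array was replicate 3 in 14 genes, replicate 2 in 10 and replicate 1 in 6. The lowest was replicate 1 in 15 genes, replicate 2 in 10 and replicate 3 in 5. The median of the highest over the lowest MOSE-L array was 1.92, and it passed 3 in 4 genes, Kctd14 (4.98), Fetub (4.68), Rtp4 (3.57) and Scara5 (3.34). Kctd14, Amhr2 and Ldhb were brightest on replicate 1, Fetub, Scara5 and Tspan32 on replicate 3, and Lmcd1, Kcnu1 and Il16 on replicate 2. Over the 6305 probe sets over 500 on all MOSE-L arrays whose mean MOSE-L signal lay in the range of the 30 genes, the median was 1.49 and 3.27% passed 3. In that set replicate 3 was highest in 34.7%, replicate 2 in 29.9% and replicate 1 in 35.4%. Among the 615 other genes called higher in MOSE-L than in MOSE-E it was 52.8%, 21.5% and 25.7%. Of those genes 40.5% were lowest on replicate 1, 36.3% on replicate 2 and 23.3% on replicate 3.

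**Figure D4:**
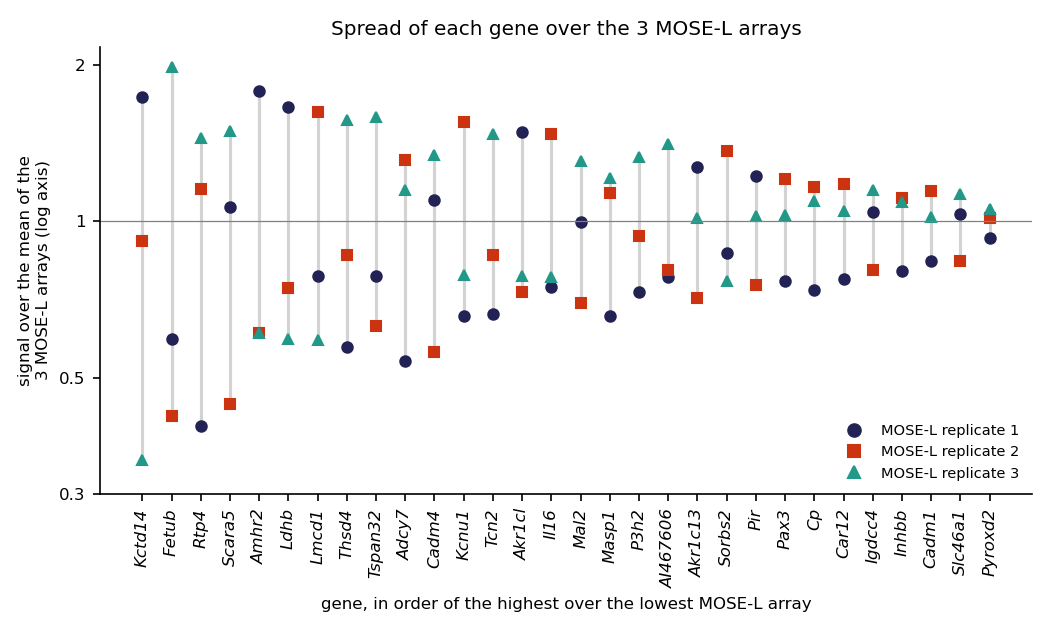
Signal on each MOSE-L array over the mean of the 3 (y axis, log scale) for each late-only gene, in order of the highest over the lowest array; shapes give the replicate. Kctd14, with replicate 1 highest, and Fetub, with replicate 3 highest, show the widest ranges, 4.98 and 4.68 times.

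The 30 genes lay on 13 chromosomes, with 5 on chromosome 7 and 4 each on chromosomes 9 and 16. Chromosome 16 holds 3.29% of the genes on the arrays and 13.3% of the late-only genes. Those 4, Fetub, Masp1, Rtp4 and P3h2, lay in a stretch of 18 protein-coding genes in the gene table, in which Masp1 and Rtp4 are neighbours. This stretch was singled out after the values were seen. Of 12 other genes of it on the arrays, 5 were tested. St6gal1, a sialyltransferase, rose by 1.14 (adjusted p = 0.00477) and Bcl6, a transcriptional repressor, by 1.29 (adjusted p = 0.00444), while Lpp, of focal adhesions, fell by 1.33 (adjusted p = 0.0485), a call lost in 13 of 18 alternative limma fits, leaving out each array except MOSE-E replicate 1 among them. Kng1, which encodes kininogen, read 1.67 to 34.8 on the earlier arrays and 131, 263 and 463 in MOSE-L, and Trp63, a relative of Trp53, 8.70 to 70.6 and then 161, 216 and 315. Both were above all earlier arrays and under the filter of the test. Over the 257 other tested genes of chromosome 16 the median log2 change was -0.10, with 5.45% called higher and 10.5% lower.

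**Figure D5:**
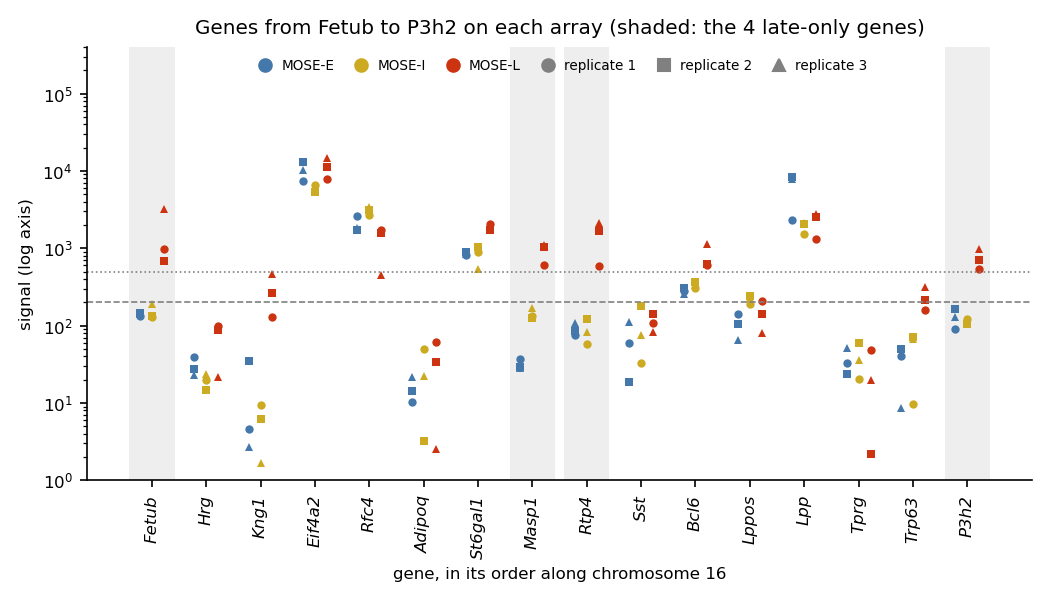
Signal (log axis) on each array of the genes from Fetub to P3h2, in their order along chromosome 16; colours give the stage, shapes the replicate, shading the 4 late-only genes, and the lines mark 200 and 500. Late-only genes alternate with genes that were bright in all stages, such as Eif4a2, and with genes dim in all stages, such as Adipoq.

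Starts of 77 other genes on the arrays lay within 100 kb of the start of a late-only gene, and 39 of them were tested. Between MOSE-L and MOSE-E 5 were called higher (12.8%) and 0 lower, against 8.12% and 7.50% of all tested genes, with a median log2 change of 0.14. Within 50 kb it was 5 of 19 tested genes (26.3%) called higher and 0 lower. Shares based on 5 genes were not tested, and nothing is read from them. Star, the cholesterol carrier of steroidogenesis, near Kcnu1, read 51.8, 45.2 and 9.88 in MOSE-E, 76.3, 30.7 and 80.6 in MOSE-I and 308, 254 and 1402 in MOSE-L (log2 change 2.70, adjusted p = 0.0106). Ahsg, which encodes fetuin-A, near Fetub, read 31.9, 14.2 and 8.62, then 33.2, 81.5 and 120, and 380, 185 and 601 in MOSE-L (2.58, adjusted p = 0.00803). Both were called only with MOSE-L replicate 3 in the table, because without it neither passed 500 on any array and neither was tested. Stard5, a sterol carrier near Il16, rose by 1.39 (adjusted p = 0.0103), Prr13 near Amhr2 by 1.26 (adjusted p = 0.0117) and the phosphatase Dusp18 near Tcn2 by 1.06 (adjusted p = 0.0248). The Prr13 call was lost without MOSE-E replicate 2, that of Dusp18 without MOSE-E replicate 2 or 3, and Dusp18 was not tested without MOSE-L replicate 3. Over all lists together, 102 of 609 tested genes outside the set were called higher (16.7%) and 74 lower (12.2%). The lists were chosen with earlier results of these data known, and nothing is read from their shares.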

How the data were processed

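RNA of 9 cultures, 3 of each stage, was hybridized to Affymetrix Mouse Genome 430 2.0 arrays. The authors computed the deposited intensities as linear MAS 5.0 signals per probe set, scaled to a trimmed mean of 500 on each array. Detection calls were not used. Probe sets were named through a platform table and a gene table of GRCm38.p6, and probe sets naming several genes or none were left out of the gene counts. For the fits, 50 was added to the deposited signals before the log2 was taken. All 13845 probe sets that passed 500 on some array were fitted with 1 mean per stage in limma 3.58.1 under R 4.3.3, with a variance trend and Benjamini-Hochberg adjustment over all of them. A gene outside the set took its brightest tested probe set. The code was tested on simulated data. The late-only genes and the gene lists were chosen with earlier results of these data known, and 5 lists were written after their values were seen. All late-only genes are named. Other genes are named where they lay nearest a threshold, were called near a late-only gene, or were the largest 3 called changes of a list that holds one, besides the stretch of chromosome 16 and the lists written later, whose called genes are given. The CpG ratio is the count of CG times the length over the product of the counts of C and G. Alternatives are listed in the closing section.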

Additional observations from a re-analysis of the deposited data

How the results depend on the processing

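The count of 30 late-only genes followed the thresholds. It was 13 with earlier signals under 100, 53 under 300, 7 with MOSE-L signals over 1000 and 103 with stage means in place of every array. Quantile-normalized signals gave 27 genes, 26 of them among the 30, and median-centred signals 24, of which 23. Leaving out 1 array gave 31 to 50 genes, with all 30 in each, and the most, 50, without MOSE-L replicate 1. Every member kept its direction in each of the 20 alternative fits in which it was tested, with P3h2, Car12, Pir, Pyroxd2 and Slc46a1 not tested when a signal over 1000 was asked for, and none lost a call when 1 array was left out, which the rule largely fixes.

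Numbers of probe sets called higher were 1056 for MOSE-L against MOSE-E, 1115 for MOSE-L against MOSE-I and 273 for MOSE-I against MOSE-E. Leaving out 1 array gave 742 to 1198, 671 to 1619 and 40 to 494, so the last moved most. With MOSE-E replicate 2 or 3 left out it fell to 40 or 41, with MOSE-I replicate 2 or 3 left out to 130 or 64, and with MOSE-E replicate 1 left out it rose to 494, while MOSE-L against MOSE-I fell to 671 without MOSE-L replicate 3. An added value of 200 gave 179 and median centring 459 for MOSE-I against MOSE-E. Median centring also moved the split of MOSE-L against MOSE-I from 1115 higher and 810 lower to 801 and 1310. The methods' t-test with adjustment left 147, 3 and 5 in the 3 comparisons, 0 of the genes near the late-only genes and 16 listed genes. Near the late-only genes 5 were called higher. It was 3 with a signal over 1000, 23 of 176 within 500 kb (13.1%) and 5 of 19 within 50 kb (26.3%). Leaving out 1 array gave 2 to 5, with 3 without MOSE-E replicate 2 and 2 without MOSE-L replicate 3. The 102 listed genes called higher ran from 70 to 113 leaving out 1 array. The cause of these moves was not tested, other than the stricter filters, which test fewer genes.

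The main fit did not pair the cultures by replicate number. Correlations of deviations from the stage means ran from -0.113 to 0.41 for same-numbered arrays of different stages. For arrays with different numbers they ran from -0.493 to 0.241. The highest, 0.41, was that of MOSE-E and MOSE-L replicate 1. These ranges overlap and do not settle whether replicate numbers pair the cultures. With the replicate number as a block 1045, 1175 and 285 probe sets were called higher, 5 near genes and 100 listed genes. Of the 30 genes, 23 lost the call of MOSE-L against MOSE-E and 30 that of MOSE-L against MOSE-I in some alternative. These losses were all in the methods' t-test with adjustment. Without adjustment that t-test still did not call Amhr2, Kctd14 and Fetub in either comparison. In the limma alternatives only AI467606 lost a call, that of MOSE-L against MOSE-I with an added value of 1. The number of arrays and the low signals before MOSE-L limit every fold of these genes.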

Other observations

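The same thresholds were met by 10 probe sets to which the platform table gives no gene, and they are described by their identifiers, chosen after the values were seen. The brightest, 1456182_x_at, read 4.75 to 32.8 on the MOSE-E and MOSE-I arrays and 18107, 26516 and 33860 on the MOSE-L arrays. Next came 1433438_x_at, with 14.0 to 146 earlier and 17866, 22244 and 25075 late. The third, 1456456_x_at, read 4.77 to 17.6 earlier and 3449, 4845 and 6446 late. In all 3 replicate 1 was the dimmest MOSE-L array and replicate 3 the brightest. Of the others, 1439200_x_at read 713 on MOSE-L replicate 1 and 4816 and 5159 on replicates 2 and 3, and 1418949_at read 868 and 701 on replicates 1 and 2 and 3206 on replicate 3. The most even was 1448136_at, with 927, 1019.6 and 874.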
